A study of Mus musculus with 18 samples.

Results

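RNA sequencing compared CD69+ MHC I low thymocytes of 3 SHARPIN-deficient mice with the same cells of 3 wild-type (WT) mice. These 6 samples are chosen by their labels (genotype SHARPIN or WT, MHC class I phenotype low) from the 18 samples of the series, and 12798 of the 27179 genes in the count files passed the filter of 0.5 CPM (reads of a gene relative to the library total) in at least 3 samples and were tested. The other samples are the CD69+ MHC I high cells of the same mice and both fractions of 3 mice that delete HOIL-1 in the T-cell lineage through a Cre driven by Cd4. The question was which genes SHARPIN loss alters just after positive selection, when thymocytes carry CD69 but have not yet raised MHC I. SHARPIN-deficient animals carry the Sharpin cpdm mutation and lack SHARPIN in every cell, on a background that is still largely C57BL/Ka after 2 backcrosses to C57BL/6, whereas the WT mice were C57BL/6. Strain and genotype therefore cannot be told apart in this comparison. The mice that delete HOIL-1 were on C57BL/6. Strain and genotype cannot be told apart when SHARPIN-deficient and HOIL-1-deficient cells are compared either, and those mutants also differ in which cells lack the protein. The age of the sequenced mice was not stated in the sources used here. Both groups were sorted with a gate that excluded dead cells, cells with CD25 or CD44, and cells of other lineages by B220, Gr1, Mac-1, MHC II, the γδ T-cell receptor or NK1.1.

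SHARPIN, HOIL-1 (encoded by Rbck1) and HOIP (encoded by Rnf31) form the linear ubiquitin chain assembly complex, LUBAC. Linear ubiquitin chains on receptor complexes recruit NEMO and the IκB kinases, which release NF-κB from its inhibitors, and they restrain the cell-death arm of TNF receptor signalling. NF-κB in turn switches on many of its own inhibitors and subunits, and in the thymus it takes part in the survival of selected cells and in the development of regulatory T cells.

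Each of the 6 libraries held between 11839227 and 15918097 counted reads. The sort held: H2-K1, the MHC I gene whose product was stained, lay between 211 and 232 CPM in the 6 low samples and between 1990 and 2120 CPM in the 6 MHC I high samples of the same mice. Replicates of a group differed from each other beyond sampling noise in every pair. The first principal component of the 6 samples held 43.3% of the variance and separated the genotypes. The sexes were not balanced. All 3 WT mice and SHARPIN-deficient mouse 2 had Xist between 3640 and 4290 CPM in this fraction, while SHARPIN-deficient mice 1 and 3 had at most 1.69 CPM and expressed Ddx3y of the Y chromosome (272 and 225 CPM).

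Many genes differed between the groups by small amounts and a few by large ones. Of the 12798 genes, 1565 differed from WT at an adjusted p under 0.05 (limma, Benjamini and Hochberg), which is 12.2% of those tested. Of these, 680 genes (5.31%) were higher and 885 genes (6.92%) were lower without SHARPIN. In size, 161 genes (1.26%) were called with a change of at least 2-fold, 40 of them higher and 121 lower. The values of the 3 SHARPIN-deficient and the 3 WT mice did not overlap for 30% of all genes tested, which is the level against which statements on separate groups are to be read.

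**Figure D1:**
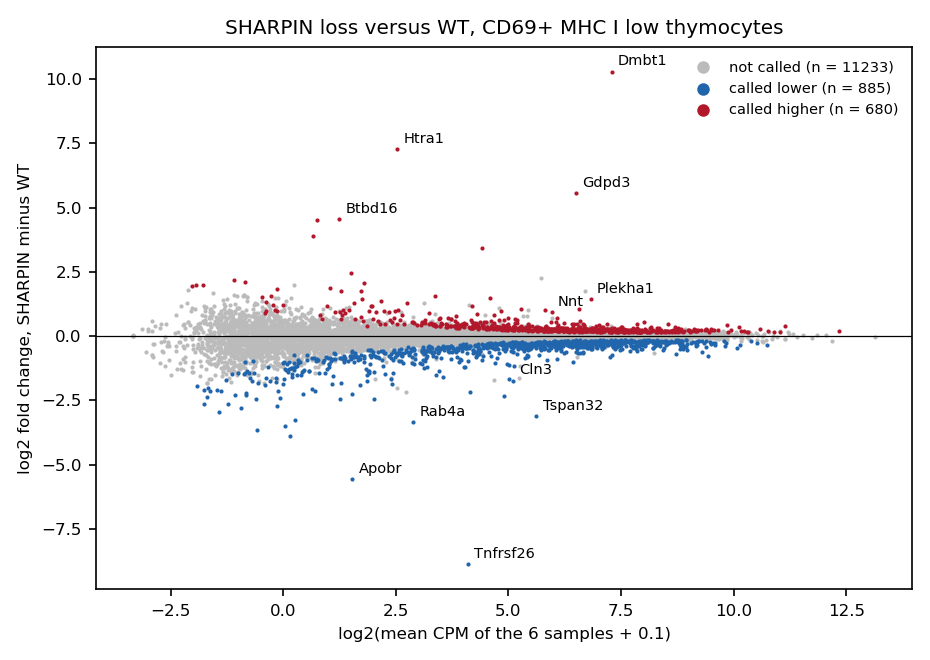
Fitted log2 fold change of SHARPIN-deficient over WT MHC I low cells (vertical axis) against the log2 of the mean CPM of the 6 samples plus 0.1 (horizontal axis), with 1 point for each of the 12798 genes, 680 called higher (red), 885 called lower (blue) and 11233 not called (grey). Most called genes lie close to 0 while a handful of labelled genes stand far from it, and the fitted values of Htra1 and Tnfrsf26 depend on the prior count because a whole group had no read of them.

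The mutated gene itself was still transcribed. Sharpin was at 74.7, 66.4 and 73.4 CPM in the SHARPIN-deficient mice and at 90.7, 97.3 and 85.9 CPM in WT. The groups did not overlap, and the level fell by 0.36 ± 0.07 (SE) on the log2 scale (adjusted p = 0.000521). Counts per gene do not show whether a transcript can make protein, so the level checks only that the labels separate the mice. The genes of its partners were not called. Rbck1 was at 233, 231 and 236 CPM against 229, 221 and 217 CPM, groups that did not overlap but differed by 0.06 ± 0.26 on the log2 scale (adjusted p = 0.911), with an error estimated across all 18 samples, the HOIL-1-deficient ones included. Rnf31 was at 118, 102 and 103 CPM against 101, 105 and 97.7 CPM (adjusted p = 0.425). Of the 12 tested genes of LUBAC and the factors that bind or trim its chains, Tnip1 and Tab1 were called higher and Sharpin alone lower. The calls make up 16.7% and 8.33% of the list, against 5.31% and 6.92% of all genes. Tnip1 encodes ABIN1, a linear ubiquitin-binding protein that dampens NF-κB signalling. It was at 154, 150 and 154 CPM without SHARPIN and at 120, 121 and 123 CPM in WT, a log2 fold change of 0.33 ± 0.05 (adjusted p = 5.38e-05), and it was also higher than in HOIL-1-deficient MHC I low cells (0.49, adjusted p = 1.58e-06).

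Most genes of the NF-κB pathway itself were lower. Of 16 subunits, inhibitors and kinases, 10 were called lower (62.5%, against 6.92% of all genes) and 2 higher (12.5%, against 5.31%). The other 4 were not called, and the list had a median log2 fold change of −0.23 against 0.008 over all genes tested. Nfkbia encodes IκBα, the inhibitor that NF-κB resynthesizes after each activation. It was at 130, 114 and 113 CPM in the SHARPIN-deficient mice and at 194, 185 and 212 CPM in WT. The groups were far apart, and the level fell by 0.73 ± 0.06 on the log2 scale, or to 0.602 of WT (adjusted p = 2.14e-10). Nfkbie, which encodes IκBε, lay between 26.1 and 29.6 CPM against 36.5 to 43.3 CPM (log2 fold change −0.60 ± 0.09, adjusted p = 3.46e-05).

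The stretches below are RefSeq sequence of GRCm38.p6 around matches to the 10-base κB consensus, searched on both strands in a window from 250 bases before to 50 bases after each annotated start, with overlapping matches counted apart. They are given because these 4 pathway genes and the target Il2ra fell and because the κB element is the site NF-κB binds. Capitals mark the matched bases, and each sequence is written 5′ to 3′ on the strand of its gene: chr12:55492648-55492701 (minus strand) for Nfkbia, chr17:45555569-45555628 (plus) for Nfkbie, chr11:23771026-23771086 (minus) for Rel, chr19:46304673-46304736 (plus) for Nfkb2 and chr2:11642566-11642626 (plus) for Il2ra.
Nfkbia: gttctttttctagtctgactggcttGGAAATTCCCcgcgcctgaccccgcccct
Nfkbie: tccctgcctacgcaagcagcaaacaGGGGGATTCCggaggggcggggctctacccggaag
Rel: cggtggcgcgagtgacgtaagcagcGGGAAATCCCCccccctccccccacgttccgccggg
Nfkb2: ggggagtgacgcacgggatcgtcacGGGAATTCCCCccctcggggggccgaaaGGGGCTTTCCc
Il2ra: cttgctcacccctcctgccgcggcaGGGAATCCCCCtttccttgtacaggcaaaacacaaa

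The match in Nfkbia begins 29 bases before the annotated start, and that in Nfkbie 106 bases before it. A match was present in 1232 of the 9985 tested genes with a promoter window (12.3%), in 13.6% of the genes called lower and in 13.8% of those called higher. Among the inducible NF-κB target genes, a list of genes known to be NF-κB targets, 16 of 39 with a window held a match (41%). Within that list the share was 9 of 21 for members called lower, 2 of 2 for members called higher and 5 of 16 for members not called. A match says only that these letters are in the window.

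Genes of subunits were lower too. Rel, the c-Rel subunit that T cells use after antigen receptor signals, was at 63.7, 60.3 and 47.9 CPM against 79.6, 89 and 92 CPM in WT (log2 fold change −0.57 ± 0.08, adjusted p = 1.7e-05). Nfkb2, the p100 precursor of the alternative pathway, was at 157, 131 and 147 CPM against 201, 211 and 218 CPM (−0.55 ± 0.06, adjusted p = 6.99e-08). No SHARPIN-deficient mouse reached the lowest WT mouse for either gene. Bcl3, Relb, Nfkb1, Nfkbiz, Traf3 and Nfkbid were also called lower, with log2 fold changes from −0.53 to −0.21. The groups overlapped for Bcl3 (adjusted p = 0.0273) and Nfkbid (adjusted p = 0.0266). Rela and Map3k14 moved the other way. Map3k14 encodes NIK, the kinase of the alternative pathway, and was at 104, 102 and 94.6 CPM against 76.1, 69.7 and 74.1 CPM (log2 fold change 0.45 ± 0.06, adjusted p = 5.34e-06). Rela, the main activating subunit of the classical pathway, rose by 0.22 ± 0.06 (adjusted p = 0.0146). The kinase genes Chuk, Ikbkb and Ikbkg and the inhibitor gene Nfkbib did not pass the test, and the largest of their log2 fold changes was −0.08, for Ikbkb.

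**Figure D2:**
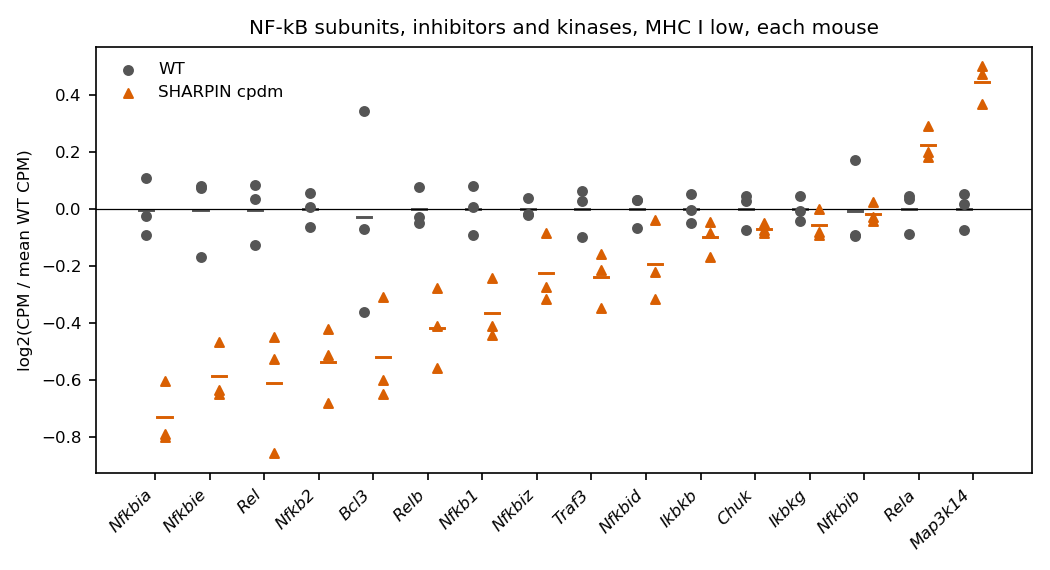
Level of the 16 NF-κB subunit, inhibitor and kinase genes in each WT mouse (grey circles) and each SHARPIN-deficient mouse (orange triangles) of the MHC I low fraction, as the log2 of CPM over the mean WT CPM, with bars at the mean of the 3 mice. From Nfkbia on the left to Traf3 the 3 SHARPIN-deficient mice lie below the WT mean, and for Rela and Map3k14 they lie above all WT mice.

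The inducible targets of NF-κB followed the same direction more often than not. Of 47 tested members, 25 were called lower (53.2%, against 6.92% of all genes) and 5 higher (10.6%, against 5.31%). The median log2 fold change of the members was −0.23. Both lists share 9 of their lowered genes, so their counts are not separate. Icam1, an adhesion molecule, was at 39.3, 36.4 and 39.8 CPM against 66, 62 and 63.6 CPM in WT and fell by 0.74 ± 0.07 on the log2 scale (adjusted p = 3.81e-08). Birc3 encodes the ubiquitin ligase cIAP2, which protects cells from TNF-induced death, and was at 63.2, 60.3 and 58.9 CPM against 93.5, 85.6 and 100 CPM (−0.62 ± 0.06, adjusted p = 4.72e-08). In neither gene did the groups overlap. Tnfaip3 and Traf1, named here after their values were seen, encode the deubiquitinating protein A20 and a TNF receptor adaptor. Tnfaip3 was at 179, 163 and 157 CPM against 236, 231 and 273 CPM (−0.56 ± 0.06, adjusted p = 1.67e-07). Traf1 was at 38.1, 31.2 and 26.3 CPM against 54.2, 54.4 and 52.2 CPM (−0.74 ± 0.09, adjusted p = 8.53e-06). Not every target fell. Ccr7, the chemokine receptor that guides thymocytes to the medulla, was at 192, 202 and 210 CPM against 154, 168 and 151 CPM (0.36 ± 0.06, adjusted p = 0.000145), and Cd40lg, Tnip1, Ccnd2 and Vim were the other members called higher.

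The counts of both lists were recomputed under other settings. With a gene length trend removed from each sample, 9 pathway members and 26 targets were called lower. With only the mice that express Xist, which leaves SHARPIN-deficient mouse 2 against the 3 WT mice, the counts were 9 and 20. The count of lowered pathway members ranged from 6 (without WT mouse 1, WT mouse 3 or SHARPIN-deficient mouse 3) to 10 and that of lowered targets from 17 to 26 when each mouse was left out in turn.

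The effect of SHARPIN loss on part of this pathway was smaller in the MHC I high fraction. The difference between the fractions was tested directly, and 400 of all genes (3.13%) passed an adjusted p of 0.05. Nfkbia fell by 0.73 in MHC I low and by 0.40 in MHC I high cells, a difference of 0.33 ± 0.07 (adjusted p = 0.00676). Birc3 fell by 0.62 and by 0.26 (difference 0.36, adjusted p = 0.0071), and Rel fell by 0.57, against −0.19 without a call in MHC I high cells (difference 0.38, adjusted p = 0.0274). Of the 16 pathway members 4 passed this test, all with a less negative value in MHC I high. The test is less certain than the contrast within the fraction: edgeR's quasi-likelihood test, which has no block for the mouse, called 30 genes in place of 400 and none of the 16 members, and leaving out WT mouse 3, leaving out SHARPIN-deficient mouse 3, or using only the mice that express Xist also left none of them.

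HOIL-1 loss gave negative values too for several of these members in the same fraction, named here as examples. Both comparisons use the same WT mice, so the values are set side by side only. Nfkbia changed by −0.73 without SHARPIN and by −0.59 without HOIL-1, Icam1 by −0.74 and −0.66, Birc3 by −0.62 and −0.44, and Gadd45b by −1.16 and −1.17. For Bcl2a1b, another target, the values lay further apart, at −1.095 and −0.5555, the latter not called by limma (adjusted p = 0.174). The direct comparison of the mutants, which does not use WT, called 1213 genes (9.48%). It did not call Nfkbia (log2 difference −0.14, adjusted p = 0.187), Icam1 (−0.08, adjusted p = 0.601), Birc3 (−0.18, adjusted p = 0.108) or Gadd45b (0.02, adjusted p = 0.965), which does not show that the mutants are equal. Of the 16 pathway members, 1 was higher and 1 lower in SHARPIN-deficient than in HOIL-1-deficient cells, and of the 47 targets 9 were higher and 2 lower.

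Some genes of the regulatory T-cell lineage were lower. CD25+ cells were gated out in both groups, so mature regulatory T cells and their CD25+ precursors should be rare in all libraries, and in bulk samples fewer cells of a type and less RNA per cell cannot be told apart. Of the 22 regulatory T-cell genes tested, 8 were called lower (36.4%, against 6.92% of all genes) and 1 was called higher. Their median log2 fold change was −0.26. The list shares Il2ra, Gadd45b, Cd83, Tnfrsf4, Tnfrsf9 and Tnfrsf18 with the inducible NF-κB targets, so the counts of these lists are not separate. Il2ra, the gene of CD25 itself, was at 5.47, 7.06 and 5.35 CPM against 15.1, 12.3 and 20.5 CPM in WT and fell by 1.37 ± 0.18 on the log2 scale (adjusted p = 2.98e-06). Gadd45b, an NF-κB-driven stress gene, was at 24.2, 19.3 and 22 CPM against 44.2, 41.5 and 58.4 CPM (−1.16 ± 0.14, adjusted p = 1.61e-06). Ikzf2 encodes Helios, which marks strongly signalled and regulatory thymocytes. It was at 546, 517 and 480 CPM against 844, 787 and 991 CPM (−0.76 ± 0.10, adjusted p = 4.11e-05). In each of these genes all SHARPIN-deficient mice were below all WT mice. Ikzf2 also differed between the mutants (SHARPIN minus HOIL-1 loss −0.94, adjusted p = 2.49e-05), with a value of 0.18 without HOIL-1 against WT. Lrrc32, the gene of GARP, was at 0.473, 0.689 and 0.335 CPM against 2.31, 2.49 and 2.42 CPM (−2.06 ± 0.30, adjusted p = 1.72e-05). Izumo1r, the gene of folate receptor 4, was the member called higher, and 9 of 20 alternatives did not call it. Foxp3 was near the floor, at 0.541, 0.43 and 0.502 CPM against 1.09, 0.64 and 0.548 CPM (adjusted p = 0.192).

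Some reporters of T-cell receptor (TCR) signal strength were lower, and some genes of the CD3 complex and of proximal signalling were higher. Of 27 reporter genes 8 were called lower (29.6%, against 6.92% of all genes) and 2 higher (7.41%, against 5.31%), with a median of −0.006. The reporters share Ikzf2, Nr4a1 and Nr4a3 with the regulatory T-cell list and Irf4, Myc and Dusp2 with the NF-κB targets. Nr4a3, a rapidly induced nuclear receptor, was at 138, 111 and 107 CPM against 157, 145 and 175 CPM (−0.44 ± 0.09, adjusted p = 0.0027). Cd69, whose product was used to gate both groups, was at 307, 321 and 315 CPM against 383, 430 and 399 CPM (−0.34 ± 0.08, adjusted p = 0.00353). Bcl2l11, which encodes the death inducer BIM, fell by 0.41 ± 0.06 (adjusted p = 4.1e-05). The 2 members called higher were Egr3 and Itm2a, and 13 and 10 of 20 alternatives did not call them. Of 27 genes of the CD3 complex and the first signalling steps, 7 were called higher (25.9%), 2 lower (7.41%) and 18 not called, with a median of 0.014. The chains Cd3e, Cd3g and Cd247 were called higher, and Cd3d was not (log2 fold change 0.13, adjusted p = 0.138). Cd3e was at 488, 497 and 527 CPM against 416, 414 and 394 CPM (0.30 ± 0.05, adjusted p = 0.000445). Zap70, the kinase that binds the CD3 chains, was at 576, 538 and 549 CPM against 454, 493 and 470 CPM (0.23 ± 0.05, adjusted p = 0.00283). Nfatc1, a transcription factor driven by calcium signals, rose by 0.35 ± 0.07 (adjusted p = 0.00115). The groups did not overlap for these 3 genes, and the fold in each was under 1.3. The count of CD3 and proximal genes called higher was 3 with only the mice that express Xist and 4 without WT mouse 1, and that of reporters called lower was 4 without WT mouse 3 and 5 without SHARPIN-deficient mouse 2.

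Survival genes changed in opposing directions. Of 15 BCL-2 family genes, 4 were called lower (26.7%, against 6.92% of all genes) and 2 higher (13.3%, against 5.31%), with a median of 0.03. Mcl1, a protein that thymocytes need to survive, was at 549, 484 and 465 CPM against 690, 634 and 631 CPM (−0.39 ± 0.06, adjusted p = 2.1e-05). Bcl2a1b and Bcl2a1d, near-identical copies of the anti-apoptotic A1 gene that can share reads, fell by 1.09 and 0.85 (adjusted p = 3.63e-05 and 0.0029). The other lowered member was a death inducer, Bcl2l11, the gene of BIM (−0.41 ± 0.06, adjusted p = 4.1e-05). Bmf, a death inducer, was at 43.6, 56 and 56 CPM against 22.7, 21.1 and 32 CPM and rose by 1.04 ± 0.17 (adjusted p = 0.00118). Bak1, a pore former of the mitochondrial death pathway, rose by 0.32 ± 0.07 (adjusted p = 0.00149). In the TNF receptor 1 death complex, 2 of 14 genes were called lower (14.3%), Birc3 and Cflar, which restrain death signalling, and Casp8, the initiator caspase, was called higher. Of 20 p53 target genes 5 were called lower (25%, against 6.92% of all genes) and none higher. Their changes were small, from −0.26 for Btg2 to −0.16 for Mdm2, and leaving out a mouse gave 0 such calls without WT mouse 1, 1 without SHARPIN-deficient mouse 3, 2 without mouse 2, 3 without mouse 1 or WT mouse 3, and 5 without WT mouse 2.

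Among 20 tested genes of the TNF receptor superfamily, 6 were called lower (30%, against 6.92% of all genes) and none higher. The count was 2 with at least 10 counts required in each of the 6 samples, a filter that removes Tnfrsf26. The list shares Tnfrsf1b, Tnfrsf4, Tnfrsf9, Tnfrsf18 and Fas with the inducible NF-κB targets. The largest changes were in neighbouring genes on distal chromosome 7, in the stretch described below where 27.2% of tested genes were called in either direction. Tnfrsf26 (chr7:143607685-143627845), a decoy receptor, had no read in any SHARPIN-deficient MHC I low library and was at 37.3, 32.3 and 32.4 CPM in WT, which makes it at least 143-fold lower against a floor of 3 counts per library. Tnfrsf22, beside it, was at 0.608, 1.12 and 0.251 CPM against 3.84, 4.16 and 3.75 CPM (−2.44 ± 0.30, adjusted p = 1.67e-06). These receptors and Tnfrsf23 are related in sequence, so the division of reads among them is uncertain. Away from that cluster, Tnfrsf25, the gene of death receptor 3, was at 5.54, 3.79 and 5.02 CPM against 10.1, 10.4 and 9.46 CPM (−1.10 ± 0.15, adjusted p = 7.22e-06). Tnfrsf8, the gene of CD30, had 1, 2 and 0 reads against 13, 9 and 8 reads, a ratio of WT over SHARPIN-deficient of 8.71 with a 95% counting interval from 2.71 to 44.6.

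Some mitosis genes were lower in MHC I low cells without SHARPIN, and most were higher in MHC I high cells. In the low fraction 11 of 38 genes were called lower (28.9%, against 6.92% of all genes) and none higher. The other 27 genes were not called, and the list had a median of −0.28. Nusap1, a spindle protein, was at 4.05, 4.3 and 5.35 CPM against 6.91, 7.29 and 8.53 CPM (−0.74 ± 0.14, adjusted p = 0.000977). Ccnb2, a cyclin of entry into mitosis, was at 2.7, 3.1 and 3.43 CPM against 4.8, 4.61 and 4.61 CPM (−0.61 ± 0.14, adjusted p = 0.00349). Smc4, a condensin subunit with far more reads, was at 356, 394 and 364 CPM against 518, 496 and 579 CPM (−0.50 ± 0.09, adjusted p = 0.000547). In these 3 genes the groups did not overlap, but the lowered state varied among the mice, with a list median of −0.49 in SHARPIN-deficient mouse 1, −0.34 in mouse 2 and −0.085 in mouse 3 relative to the WT mean. In the MHC I high fraction 29 of the 38 genes were called higher and none lower, where 8.62% of all genes were called, with a median of 0.57. Nusap1 there was 0.67 higher than WT, and Ccnb2 0.63 higher.

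The difference of the effect between fractions was called for 26 of the 38 mitosis genes, against 3.13% of all genes, and was positive for all 38, with a median of 0.89 on the log2 scale. The tool matters here: edgeR called 3 and DESeq2 18 of the differences, and the count of genes called lower in MHC I low was 3 by edgeR and 7 by DESeq2, 3 without WT mouse 3 and 4 without SHARPIN-deficient mouse 1 or mouse 2. Leaving out WT mouse 3 lowered the differences called to 12. Of 44 DNA replication genes, 6 were called higher (13.6%, against 5.31% of all genes) and none lower in MHC I low cells (median 0.08). In MHC I high cells 18 were called higher, where 8.62% of all genes were called in either direction. Cdt1 and Mcm3, which load the replicative helicase, rose by 0.36 ± 0.09 and 0.30 ± 0.08 (adjusted p = 0.0107 and 0.0103). The count of replication genes called higher in MHC I low cells was 3, 2, 2 and 1 without WT mouse 1, WT mouse 3, SHARPIN-deficient mouse 2 and SHARPIN-deficient mouse 3. Against HOIL-1-deficient MHC I low cells, 20 of the 38 mitosis genes were called lower and none higher. In that comparison 9.48% of all genes were called in either direction.

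**Figure D3:**
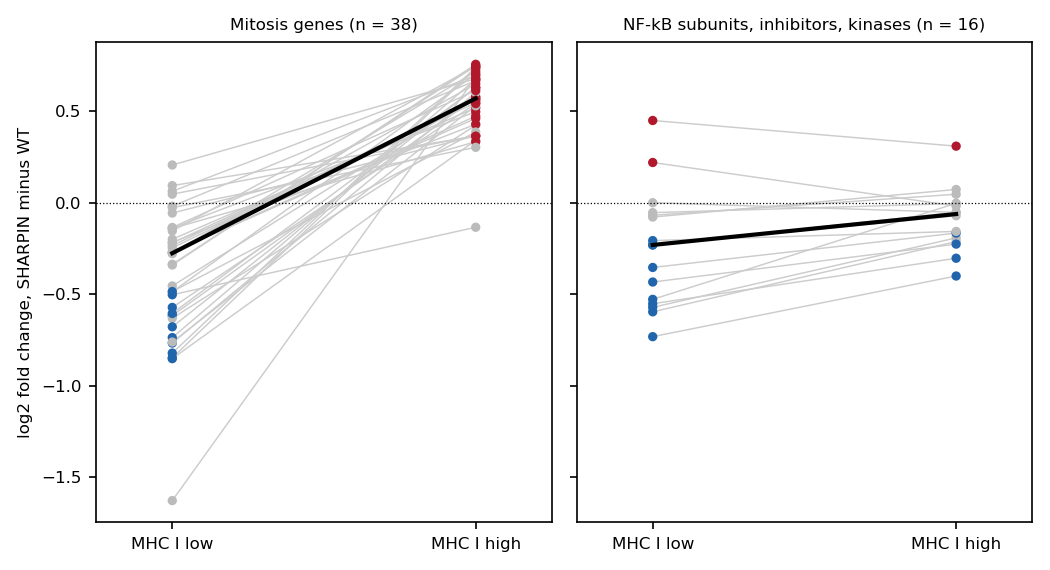
Fitted log2 fold change of SHARPIN-deficient over WT cells in the MHC I low fraction (left points) and the MHC I high fraction (right points) for 38 mitosis genes and 16 NF-κB subunit, inhibitor and kinase genes, with a line for each gene, the list median in black, and points coloured where the gene was called lower (blue) or higher (red) in that fraction. The median of the mitosis genes goes from −0.28 to 0.57, and that of the NF-κB genes from −0.23 to −0.06.

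Genes of earlier and later stages gave a mixed picture. Of 15 genes of pre-selection double-positive cells 3 were called lower (20%, against 6.92% of all genes) and none higher. Rag2, the recombinase gene that is shut off after selection, was at 2.77, 4.91 and 4.43 CPM against 7.81, 7.87 and 9.54 CPM (−1.04 ± 0.21, adjusted p = 0.00194), and its effect differed from that in MHC I high cells (difference 1.70, adjusted p = 0.000526). Cxcr4, the receptor that holds cells in the cortex, was at 46, 53.5 and 43.3 CPM against 69.5, 67.9 and 75.9 CPM (−0.55 ± 0.09, adjusted p = 0.00021). Il7r, the receptor for the survival cytokine IL-7, was at 461, 473 and 451 CPM against 390, 367 and 394 CPM (0.27 ± 0.05, adjusted p = 0.000518). All SHARPIN-deficient mice were below WT for Rag2 and Cxcr4 and above WT for Il7r. Of the 27 lineage transcription factors, Lef1, Zbtb7b, Runx1 and Satb1 were called higher (14.8%, against 5.31% of all genes) and Nfil3 and Myb lower (7.41%, against 6.92%). Lef1 was at 1251, 1283 and 1199 CPM against 960.3, 1052 and 933.7 CPM (0.36 ± 0.06, adjusted p = 0.000391). Zbtb7b, the gene of the CD4-lineage factor ThPOK, had overlapping groups, and 9 of 20 alternatives did not call it, as 11 of 19 did not call Nfil3. The count called higher was 2 without WT mouse 3 or SHARPIN-deficient mouse 2, and the count called lower was 0 without WT mouse 1, WT mouse 3 or SHARPIN-deficient mouse 2 and 1 without WT mouse 2 or SHARPIN-deficient mouse 3. Of 33 cytokine receptor, JAK, STAT and SOCS genes, 8 were called lower (24.2%, against 6.92% of all genes) and 2 higher (6.06%, against 5.31%). The count called lower was 5 without WT mouse 3. Cish, a feedback inhibitor of cytokine signals, was at 8.72, 10.5 and 11.1 CPM against 15.1, 14.7 and 15.1 CPM (−0.58 ± 0.12, adjusted p = 0.00095).

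Some glycolysis and MHC I presentation genes were slightly higher. Of 28 glycolysis genes 8 were called higher (28.6%, against 5.31% of all genes) and none lower, with a median of 0.19. Hk1, which starts glycolysis, was at 178, 183 and 180 CPM against 139, 147 and 150 CPM (0.32 ± 0.06, adjusted p = 0.000244). Eno1 was at 197, 191 and 195 CPM against 155, 152 and 166 CPM (0.30 ± 0.07, adjusted p = 0.00847). The groups did not overlap for either enzyme. The count of glycolysis genes was 3 with only the mice that express Xist and without WT mouse 1, and 5 without WT mouse 3 or SHARPIN-deficient mouse 2, while with only the mice that express Xist the median stayed at 0.18. Of 19 genes of MHC I presentation, Calr, Tap2, H2-D1 and Tap1 were called higher (21.1%, against 5.31% of all genes) and none lower. H2-D1 was at 349, 358 and 346 CPM against 301, 310 and 285 CPM (0.24 ± 0.05, adjusted p = 0.000996), whereas H2-K1, which was used for the gate, was at 232, 225 and 211 CPM against 213, 212 and 222 CPM (adjusted p = 0.607). Class I genes are similar in sequence and could share reads.

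A few interferon-stimulated genes were higher. Of 49 tested members 6 were called higher (12.2%, against 5.31% of all genes) and 2 lower (4.08%, against 6.92%), with a median of 0.14. Ifi27l2a was at 29.3, 36.1 and 31.7 CPM against 17.7, 22 and 16.7 CPM (0.83 ± 0.12, adjusted p = 0.000186). Oas1a, an RNA sensor, was at 5.54, 4.73 and 3.68 CPM against 1.54, 2.81 and 1.17 CPM (1.46 ± 0.28, adjusted p = 0.00138). The list median was −0.007 in SHARPIN-deficient mouse 1, 0.241 in mouse 2 and 0.155 in mouse 3, so the mice differed among themselves. With only the mice that express Xist, 15 members were called higher, and without SHARPIN-deficient mouse 2 only 3 were. Against HOIL-1-deficient MHC I low cells, 21 of the 49 genes were higher without SHARPIN and none lower, compared with 9.48% of all genes called in either direction.

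The remaining lists had few called members, to be read against 5.31% of all genes called higher and 6.92% called lower. Of 89 ribosomal protein genes 8 were called higher (8.99%), with a median of 0.10 that became 0.04 with the length trend removed. The count was 4 without WT mouse 1, 5 without SHARPIN-deficient mouse 1 or mouse 3, and 0 with only the mice that express Xist. Of 86 respiratory chain genes 4 were called higher (4.65%, under the share of all genes), and 2 were without WT mouse 1 or SHARPIN-deficient mouse 3. Uqcrq led them, at 85.2, 91.7 and 87.8 CPM against 63.2, 63.8 and 60.1 CPM (0.51 ± 0.06, adjusted p = 1.61e-06). Of 37 Myc and ribosome biogenesis genes 4 were called lower, led by Gnl3, the gene of nucleostemin (−0.44 ± 0.07, adjusted p = 8.93e-05), and 2 were without WT mouse 3 or SHARPIN-deficient mouse 2. Of 17 unfolded protein and amino acid stress genes 4 were called higher by limma, none by edgeR or DESeq2, none without WT mouse 1, WT mouse 3 or SHARPIN-deficient mouse 3, and 1 without SHARPIN-deficient mouse 1 or mouse 2. Heat shock and immediate-early genes had 4 of 22 members lower. Hspa1b, an inducible HSP70 gene, was at 20, 4.73 and 10.3 CPM against 35.7, 55.6 and 51.1 CPM (−2.34 ± 0.54, adjusted p = 0.015), and its near-identical copy Hspa1a can share its reads. Dnajb1, an HSP40 gene that works with it, was at 132, 110 and 112 CPM against 169, 156 and 143 CPM (−0.42 ± 0.07, adjusted p = 0.000257). Both were lower than in HOIL-1-deficient cells as well (−4.04 and −0.73, adjusted p = 0.00137 and 8e-07). Of 31 sterol and fatty acid genes 3 were called higher and 2 lower, but the count called higher was 0 without SHARPIN-deficient mouse 1, 1 without SHARPIN-deficient mouse 2 and 0 with only the mice that express Xist, and the count called lower was 0 without SHARPIN-deficient mouse 2 and 1 without WT mouse 1, WT mouse 3 or SHARPIN-deficient mouse 1. Of the smaller lists, calls of 1 or 2 genes mostly changed when a mouse was left out. Of 14 glucocorticoid-responsive genes Klf9 alone was called (lower), of 8 GIMAP genes Gimap8 alone was called (lower), of 25 mature single-positive genes 2 were called in each direction, and of 19 chemokine and guidance receptors Ccr7 and Ccr8 were called higher and Ptger4, Cxcr4 and Nrp2 lower.

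**Figure D4:**
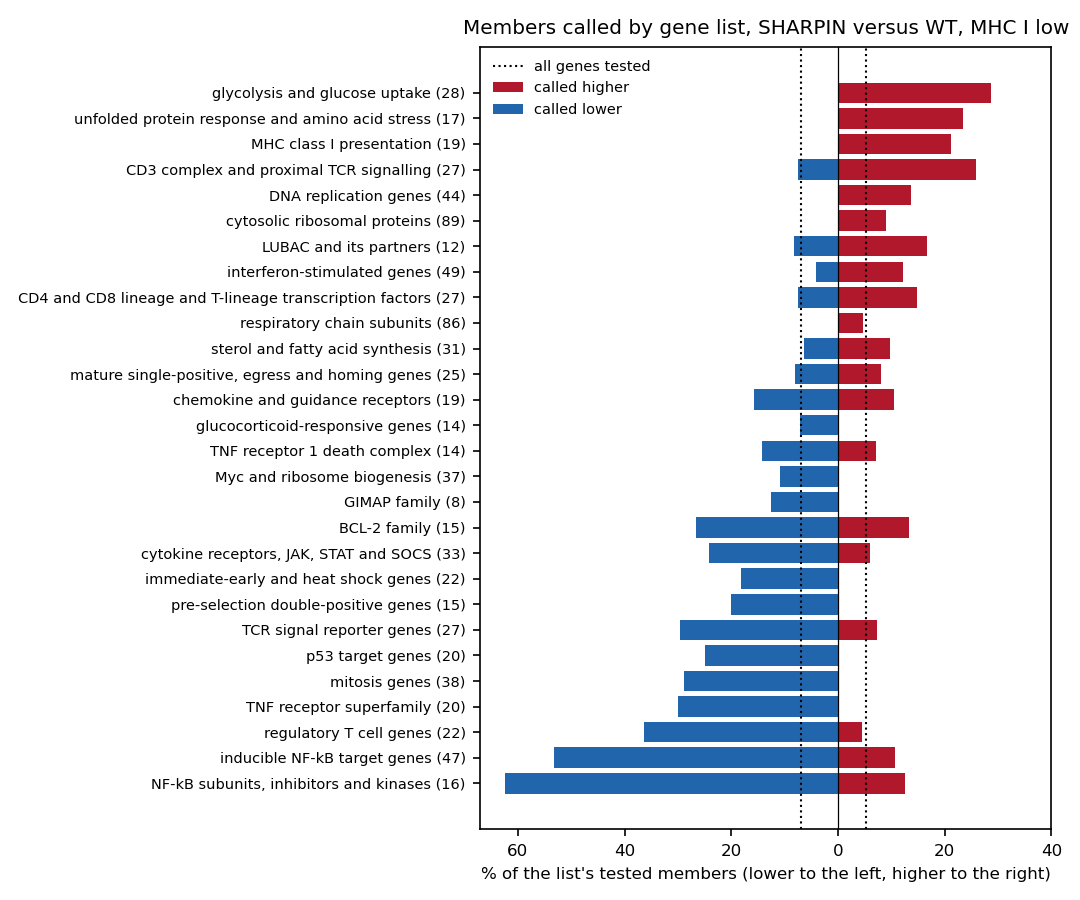
Share of the tested members of each of the 28 gene lists that were called higher (red, to the right) or lower (blue, to the left) in SHARPIN-deficient MHC I low cells, in percent, with the number of tested members in brackets and dotted lines at the shares of all genes tested, 5.31% higher and 6.92% lower. The lists of NF-κB pathway members and targets extend farthest to the left, at 62.5% and 53.2%, and glycolysis farthest to the right, at 28.6%.

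Several of the largest changes lay on distal chromosome 7. Dmbt1 (chr7:131032057-131121628), a scavenger receptor of epithelia, was at 320, 286 and 330 CPM in SHARPIN-deficient cells and at 0.32, 0.192 and 0.0782 CPM in WT, where 9 reads were counted in all, a ratio of 1530 with a 95% counting interval from 807 to 3350. Htra1 (chr7:130936203-130985658), a secreted protease, had no WT read and 9.9 to 13.7 CPM without SHARPIN, at least 55-fold higher. Plekha1 (chr7:130860551-130913494), a phosphoinositide-binding protein, was at 178, 160 and 155 CPM against 59.2, 67 and 58.1 CPM (1.43 ± 0.06, adjusted p = 6.49e-17). Btbd16, Plekha1, Htra1 and Dmbt1 lie in this order along the chromosome. Further on, Tspan32 (chr7:143004907-143019486), a tetraspanin of blood cells, was at 8.18, 11.6 and 10.7 CPM against 87.7, 91.6 and 84.4 CPM (−3.10 ± 0.08, adjusted p = 9.99e-22). Before them, Cln3, a lysosomal membrane protein gene, and Apobr, a lipoprotein receptor gene that overlaps it by position, were lower, and Gdpd3 was higher, at 125, 138 and 269 CPM against 3.33, 3.26 and 3.05 CPM. Cln3 was at 18.2, 14.1 and 15.9 CPM against 51.4, 55.1 and 51.7 CPM, and Apobr had 3 reads in all against 241 reads, a ratio of 70 with an interval from 23.7 to 342. The others among the 5 largest changes in each direction lay elsewhere and rested on few reads. Sfrp4 on chromosome 13 was higher, with 115 against 6 reads, and Olfr56 on chromosome 11, Lrrc9 on chromosome 12 and Cep126 on chromosome 9 were lower, with 3, 1 and 4 reads against 84, 50 and 76 reads.

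From 120 Mb to the end of chromosome 7, 66 of 243 tested genes were called (27.2%, against 12.2% of all genes) and 22 of them by at least 2-fold (9.05%, against 1.26%), 8 higher and 14 lower. These 22 genes are most of the 27 genes of chromosome 7, and a minority of the 161 genes in all, called with such a change. All 22 also differed between SHARPIN-deficient and HOIL-1-deficient MHC I low cells, none of them differed between HOIL-1-deficient and WT cells at an adjusted p of 0.05, and 19 were called in MHC I high cells of SHARPIN-deficient mice too. The limit of 120 Mb was chosen with the results of these data known. The 22 genes were picked by their values in the same SHARPIN-deficient libraries, and both fractions come from the same mice. These counts are therefore not independent of the choice. The region is not that of Sharpin, which lies on chromosome 15, where 3 of 500 genes were called by 2-fold or more. Elsewhere, Rab4a on chromosome 8, an endosomal GTPase, was at 1.22, 1.38 and 1.09 CPM against 13.6, 14.1 and 12.6 CPM (−3.34 ± 0.15, adjusted p = 1.88e-16). Nnt (chr13:119335527-119409257), a mitochondrial transhydrogenase that is mutated in the C57BL/6J substrain, was at 80.4, 83 and 81.1 CPM against 41.7, 47.8 and 39.5 CPM (0.94 ± 0.07, adjusted p = 1.7e-10). Strain differences and SHARPIN loss cannot be told apart for these genes.

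Chromosome 13 (3.08%) and chromosome X (2.93%) also held more genes called by at least 2-fold than the 1.26% of all genes. The sexes were not balanced between the groups, as given above. On chromosome X, Chic1 was at 1.08, 1.12 and 1.34 CPM against 6.53, 5.37 and 8.13 CPM in WT, and Rbm3, a cold-inducible RNA-binding protein gene, was at 68.2, 77.1 and 73.7 CPM against 120, 113 and 109 CPM (−0.64 ± 0.06, adjusted p = 3.18e-08). Other genes with strong calls were Gramd3 (9.12, 9.55 and 11.1 CPM against 24.8, 19.4 and 22.4 CPM), Slc36a1, a lysosomal amino acid transporter gene (36.8, 42.7 and 40.4 CPM against 82.5, 75.3 and 70.3 CPM), and Enc1, an actin-binding adaptor gene (111, 146 and 130 CPM against 64.2, 61.7 and 60.2 CPM). Gramd3 changed by −1.19 without SHARPIN and by −1.16 without HOIL-1 in this fraction, and the mutants were not called different (adjusted p = 0.924). Enc1 was called higher than in HOIL-1-deficient cells (0.84, adjusted p = 1.83e-05). Dusp10, a phosphatase of stress kinases, was at 287, 260 and 259 CPM against 187, 182 and 203 CPM (0.49 ± 0.06, adjusted p = 7.58e-07).

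**Figure D5:**
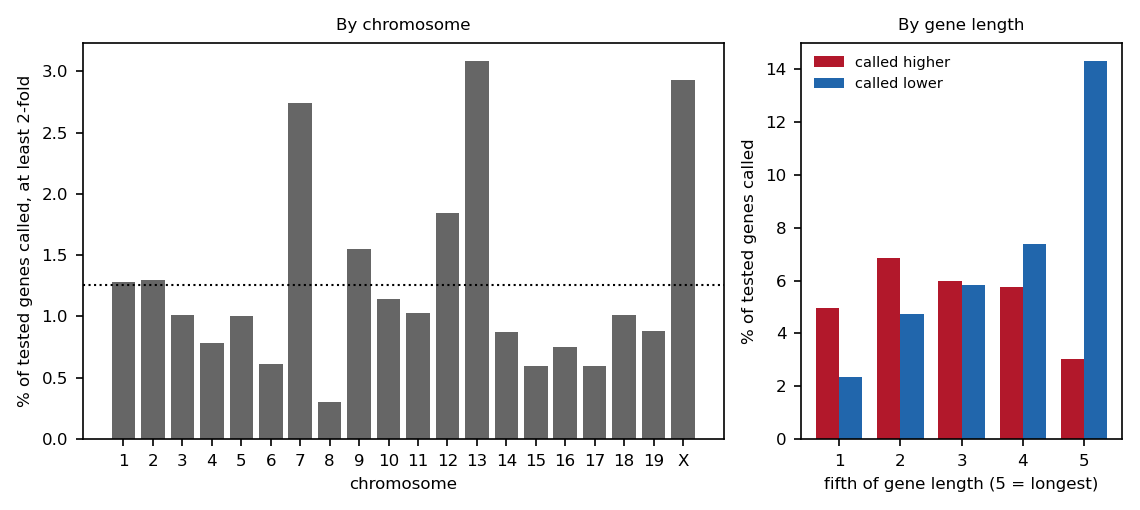
Left, percent of the tested genes of each chromosome that were called and changed by at least 2-fold in SHARPIN-deficient MHC I low cells, with a dotted line at 1.26% for all genes. Right, percent of genes called higher (red) or lower (blue) in 5 equal groups by gene length. Chromosomes 7, 13 and X reach 2.74%, 3.08% and 2.93%, and the group of longest genes holds 366 genes called lower and 78 called higher.

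Gene length moved with the direction of change. The median length of genes called lower was 3977 bases and that of genes called higher 2505 bases, against 2746 bases for all genes. In the longest of 5 equal groups by length, the median log2 fold change was −0.07, and it was −0.03, −0.05 and −0.13 in the 3 SHARPIN-deficient mice. In the group of shortest genes, where 127 genes were called higher and 60 lower, the median was 0.06. Its part in the small changes of the lists was not tested beyond the values with the length trend removed, under which 745 genes were called higher and 793 lower.

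Markers of other cells were compared as summed levels. The summed level of the T-cell markers was 7080 to 7290 CPM in SHARPIN-deficient and 6710 to 6790 CPM in WT libraries, with 3 of 11 members called higher and 2 lower. B-cell markers summed to at most 6.97 CPM, granulocyte markers to at most 0.256 CPM, thymic epithelial markers to at most 13.9 CPM and erythroid markers to at most 1.66 CPM, with ranges that overlapped between the groups. Pax5, Clec9a, Krt5, Ncr1 and Gata2 had no read in the 6 samples. They are markers of B cells, cross-presenting dendritic cells, epithelial cells, NK cells and early progenitors, in that order. Other members of their lists had reads, among them Cd79b (3.83 CPM on average without SHARPIN and 3.98 CPM in WT) and Epcam (6.92 and 7.67 CPM). The genes without reads therefore do not show that a cell type was absent. Endothelial and stromal markers summed to 133 to 138 against 130 to 155 CPM, nearly all of it Pecam1 (133 and 140 CPM on average), while Cdh5, Kdr, Col3a1 and Pdgfra had no read. Besides the T-cell markers, those of NK and innate-like T cells and those of double-negative thymocytes had sums that did not overlap between the groups. The former lay at 38.2 to 53.8 against 27.4 to 36.6 CPM, with 2 of 8 tested members called higher and 1 lower. The latter lay at 8.24 to 9.45 against 11.6 to 14.9 CPM, with Kit called lower. In the former list the difference came from Sox13, at 25.9 CPM on average against 13.4 CPM, while Klrd1 was at 0.304 against 0.0213 CPM, Gzma was lower and Trdc, Nkg7 and Eomes were not called. In the latter list it came from Kit, at 4.67 CPM on average against 9.64 CPM. Lyl1 went the other way (1.93 against 1.28 CPM) and Mef2c was near level (1.86 against 1.92 CPM), neither being called. Myeloid and dendritic markers lay at 7.78 to 11.1 against 11.1 to 12.2 CPM. Their part in the changes of the mitosis, interferon and regulatory T-cell lists was not tested.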

How the data were processed

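RNA from sorted CD69+ MHC I low and MHC I high thymocytes of 3 mice per genotype was sequenced. The authors aligned reads to mm10 with Rsubread and assigned them to genes with featureCounts, and they deposited raw counts per gene; strand and multi-mapping settings are not given in the sources used here. CPM values were computed from these counts. The study's design was followed in R 4.3.3: edgeR 4.0.16 for TMM factors (0.9873 to 1.015) and log2 CPM with a prior count of 1, then limma 3.58.1 with statmod 1.5.0 on all 18 samples, with sample weights, the mouse as a random block (correlation 0.224), a mean-variance trend with robust moderation, and Benjamini-Hochberg adjustment. Genes needed 0.5 CPM in 3 samples; Y-linked, predicted and unnamed genes and Xist were left out of the test. The SHARPIN effect was also compared between fractions and with HOIL-1 loss in the low fraction. Fold changes are SHARPIN-deficient over WT, and a gene was called at an adjusted p under 0.05. Labels do not say that same-numbered WT and SHARPIN-deficient mice are related, and the samples are taken as separate mice. Both fractions of a number come from the same mouse, and they deviated together with correlations from 0.0702 to 0.256.

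Named genes are Sharpin, Rbck1 and Rnf31, the 12 genes with the smallest p in each direction whose groups do not overlap, the 5 with the largest change in each direction at a group mean of 1 CPM or more, and up to 4 called members per list and direction, with the sex and sort checks. Other genes were named after their values were seen. The members and gene lists were chosen with earlier results of these data known. Some genes stand in several lists, so the counts of different lists are not separate. The results were recomputed with DESeq2 1.42.0 and with the quasi-likelihood test of edgeR, and under other filters, scalings and prior counts, other blocks and weights, with Xist as a covariate or as a filter on mice, and without each mouse in turn; removal of a gene length trend was chosen after seeing the data. Counting intervals (95%) and the floor of 3 counts cover counting error only. The procedure was tested on simulated data.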

Additional observations from a re-analysis of the deposited data

Results flagged for a closer look

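Among the named genes, 27 had a SHARPIN effect that differed between the MHC I low and MHC I high fractions at an adjusted p under 0.05 in limma's test of the difference. Values are the log2 fold change in MHC I high minus that in MHC I low. For NF-κB genes that were lower in MHC I low cells, the differences were Nfkbia (0.33), Birc3 (0.36), Rel (0.38), Nfkbie (0.38) and Nfkb2 (0.25). For mitosis genes they were Ccnb2 (1.23), Nusap1 (1.41) and Kif4 (1.56). For other genes of selection, survival and signalling that were lower they were Rag2 (1.70), Bcl2l11 (0.27), Myb (0.27), Themis (0.24) and Tnfrsf8 (3.06). Among genes higher in MHC I low cells they were Cd3e (−0.29), Lef1 (−0.29), Hk1 (−0.28), Ifi27l2a (−0.58) and Vim (−0.26). Among the other lowered genes they were Tspan32 (1.44), Gramd3 (0.87), Apobr (1.23), Lrrc9 (2.22), Gnl3 (0.39) and Nop56 (0.29), and among the other raised genes Btbd16 (−2.06), Enc1 (−0.67) and Lyrm7 (−0.67). Of these 27 differences, those of Ccnb2, Gramd3, Nusap1, Rag2 and Tspan32 were called in all 19 alternatives run for them, while edgeR's quasi-likelihood test did not call 21 of the 27, with an adjusted p of 0.094 for Nfkbia and up to 0.399, for Apobr. The differences of Lyrm7 were called in 3 of 19 alternatives, of Nfkb2 and Themis in 5 of 19 and of Apobr in 5 of 18. Tnfrsf8, Apobr, Lrrc9 and Btbd16 had few reads in at least one group.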

How the results depend on the processing

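Every gene shared with the 1565 calls kept its direction in each alternative, but the number of calls varied. With only the mice that express Xist above 1000 CPM, 616 genes were called, 505 of them shared, and leaving out 1 mouse gave 818 (without WT mouse 3) to 1554 (without WT mouse 2). The tests by edgeR and DESeq2 called 1138 and 1264 genes. For the difference between fractions (400 genes), edgeR called 30, DESeq2 133, no filter on low counts 146, no sample weights 253, no random block for the mouse 124 and the mice with Xist 54, and leaving out 1 mouse gave 104 to 496. Against HOIL-1 loss (1213 genes), the mice with Xist gave 530 and leaving out 1 mouse 707 to 1197. The filter on Xist left only SHARPIN-deficient mouse 2 and only HOIL-1-deficient mouse 3. Neither mutant group was then replicated, so the count against HOIL-1 loss under this filter is not that of a replicated comparison. For SHARPIN loss against WT, the mouse number as a replicate block gave 1842 calls, 1414 of them shared. WT and SHARPIN-deficient mice of the same number deviated together only weakly (correlations 0.0194, 0.0202 and 0.0163). Pairs of different numbers had correlations from −0.0179 to −0.000169. Such values do not settle whether mice of the same number are related. With Xist as a covariate, H2-K1 (−0.011) and Rbck1 (−0.1) turned their sign, neither being called. Of 138 named genes, 135 were called, 68 of them in all alternatives and 67 not in at least 1. Depth limits genes near 1 CPM, and the causes of these changes were not tested.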

Other observations

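Some histone genes, a list chosen after their values were seen, were higher in SHARPIN-deficient MHC I low cells. Of 35 tested histone genes, 9 were called higher, against 5.31% of all genes, 1 was called lower and 25 were not called, with a median log2 fold change of 0.91. Their summed level was 104, 120 and 155 CPM in the SHARPIN-deficient mice and 76.9, 64.0 and 67.7 CPM in WT, so the groups did not overlap. In MHC I high cells 9 were called higher and none lower, and no difference between the fractions was called. Histone genes are near-identical copies and many of their transcripts lack poly(A) tails, so their counts are uncertain.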
